A study of Mus musculus with 15 samples.

Results

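The proteins of the mitochondrial ribosome are encoded in the nucleus by genes whose mouse symbols begin with Mrpl (large subunit) or Mrps (small subunit) followed by a number. All 76 rows of the gene table with such a symbol, 47 Mrpl and 29 Mrps, were taken from 23284 rows, and the choice used no measured value. Of these, 75 reached 1 FPKM (fragments scaled to transcript length and to the size of the library) in at least 5 libraries and were tested, while Mrpl23 did not. Messenger RNA was sequenced from kidneys of wild-type (WT) mice in 3 groups of 5 libraries labelled D-ala, L-ala and vehicle, that is, D-alanine, its mirror image L-alanine, and the carrier without either. All 3 groups share the label of 2 h and a WT genotype, and the labels add no allele, age, sex, dose or route, so matched doses are not assumed. The labels do not say that the 5 libraries of a group came from separate mice, so the p-values measure the spread between these libraries, part of which may be technical.

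Mitochondria carry their own ribosomes, which translate the few messages of mitochondrial DNA into core subunits of the respiratory chain and of ATP synthase. Their RNA is mitochondrial, but all of their proteins are made in the cytosol and imported, so a ribosome needs matched supply from many scattered nuclear genes. The kidney, and the proximal tubule above all, is rich in mitochondria that power the reabsorption of salt, glucose and amino acids. Names are not a complete guide to place: the Mrps18a and Mrps30 proteins sit in the large subunit, and Mrps36 is now regarded as a subunit of the oxoglutarate dehydrogenase complex.

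Promoters of these genes often carry sites for NRF1, for ETS-family factors such as GABP, and for YY1, which are known regulators of mitochondrial genes, and 3 promoters are shown because the results turn on those genes. RefSeq promoters (build GRCm38.p6, 250 bases before to 50 after the start) were matched by symbol for 67 of the 76 genes. The letters searched on both strands were GCATGCGC for NRF1, CCGGAAG for ETS factors and AAGATGGC for YY1, and matches to them are in capitals. The NRF1 letters were found in 11.9% of the 67 promoters, against 6.02% of 8477 tested genes and 3.05% of all 27025 genes with an entry. The ETS letters were found in 35.8% of the 67, against 19.9% of tested and 9.93% of all genes. The YY1 letters were found in 17.9% of the 67, against 5.29% of tested and 3.19% of all genes. At least 1 of the 3 was present in 53.7% of the 67 promoters, against 28.2% of tested and 14.9% of all genes. A match is a string of letters and not a measured binding site. The promoter entry of Mrps18b, the one gene that passed the test with D-ala against vehicle, is chr17:35916391-35916690 on the minus strand. It holds the NRF1 letters at 2 places and the ETS letters once, read on the other strand. For Mrps21, the gene of highest level and of smallest adjusted p with L-ala, the entry is chr3:95871465-95871764 on the minus strand. It holds the ETS letters once. The entry shown for Mrpl36, the gene with the largest fall in D-ala relative to L-ala, spans chr13:73330759-73331058 on the plus strand. It holds the YY1 letters once and lies within the GENCODE gene, which begins at 73328513.
Mrps18b: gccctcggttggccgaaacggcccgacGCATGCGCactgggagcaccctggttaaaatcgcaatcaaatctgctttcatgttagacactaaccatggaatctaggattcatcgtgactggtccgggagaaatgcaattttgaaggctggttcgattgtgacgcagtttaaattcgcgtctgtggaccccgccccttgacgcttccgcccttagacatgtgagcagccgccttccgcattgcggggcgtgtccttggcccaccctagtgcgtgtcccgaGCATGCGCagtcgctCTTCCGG
Mrps21: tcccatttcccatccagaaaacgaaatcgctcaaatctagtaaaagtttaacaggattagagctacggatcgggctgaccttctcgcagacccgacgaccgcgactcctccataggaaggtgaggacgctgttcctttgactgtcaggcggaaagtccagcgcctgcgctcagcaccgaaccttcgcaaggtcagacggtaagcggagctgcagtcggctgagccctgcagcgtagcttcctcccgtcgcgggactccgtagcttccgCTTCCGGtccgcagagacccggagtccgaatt
Mrpl36: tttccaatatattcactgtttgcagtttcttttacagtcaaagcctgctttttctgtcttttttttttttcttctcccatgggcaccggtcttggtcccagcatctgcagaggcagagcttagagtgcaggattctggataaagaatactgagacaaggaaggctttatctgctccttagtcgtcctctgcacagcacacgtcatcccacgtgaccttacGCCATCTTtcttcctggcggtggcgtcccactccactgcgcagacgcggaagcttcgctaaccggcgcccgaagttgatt

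Most of these genes were among the better expressed in the kidney. The median of their mean levels was 58.5 FPKM over the 15 libraries, against 10.1 FPKM for all 11781 tested genes, and 21 of the 75 exceeded 100 FPKM while 3 lay under 10 FPKM. Mrps21, a small-subunit protein with a bacterial counterpart, had the highest mean at 428 FPKM. It was followed by Mrpl12 at 374 FPKM, Mrpl20 at 273 FPKM, Mrpl52 at 194 FPKM and Mrps6 at 186 FPKM. Mrpl12 is a protein of the factor-binding stalk that also binds the mitochondrial RNA polymerase, and the bacterial counterpart of Mrpl20 is needed early in assembly of the large subunit. At the low end, Mrps36 had 1.29 to 2.92 FPKM in D-ala libraries, 1.33 to 2.51 FPKM in L-ala libraries and 1.201 to 2.40 FPKM in vehicle libraries, and Mrpl19 and Mrps33 also stayed under 10 FPKM. Mrpl23, a protein at the exit of the peptide tunnel, was listed at 0 in 12 of 15 libraries, with 0.247 FPKM in D-ala replicate 2, 0.26 FPKM in L-ala replicate 3, 0.297 FPKM in L-ala replicate 5 and 0 in every vehicle library. Values among vehicle libraries were tight, with a median coefficient of variation of 8.04% and a range from 1.72% for Mrpl9 to 26.1% for Mrps36.

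The transcripts are short. Their longest coding transcript (GENCODE M21) had a median of 1316 bases, against 3027 bases for 11323 tested genes with one, and 59 of the 75 fell among the shortest 25% of tested genes by the length behind the deposited FPKM. That length could be recovered for each gene as the ratio of 2 deposited columns. Their GC content did not stand apart in this way, at a median of 50.1% against 50.4%. The exons of 31 of the 76 genes overlap another annotated gene, 7 of them on the same strand, and 26 have a gene starting on the opposite strand within 1000 bases. Whether counting used strand is not given in the sources used here, and reads of such neighbours may have been shared.

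**Figure D1:**
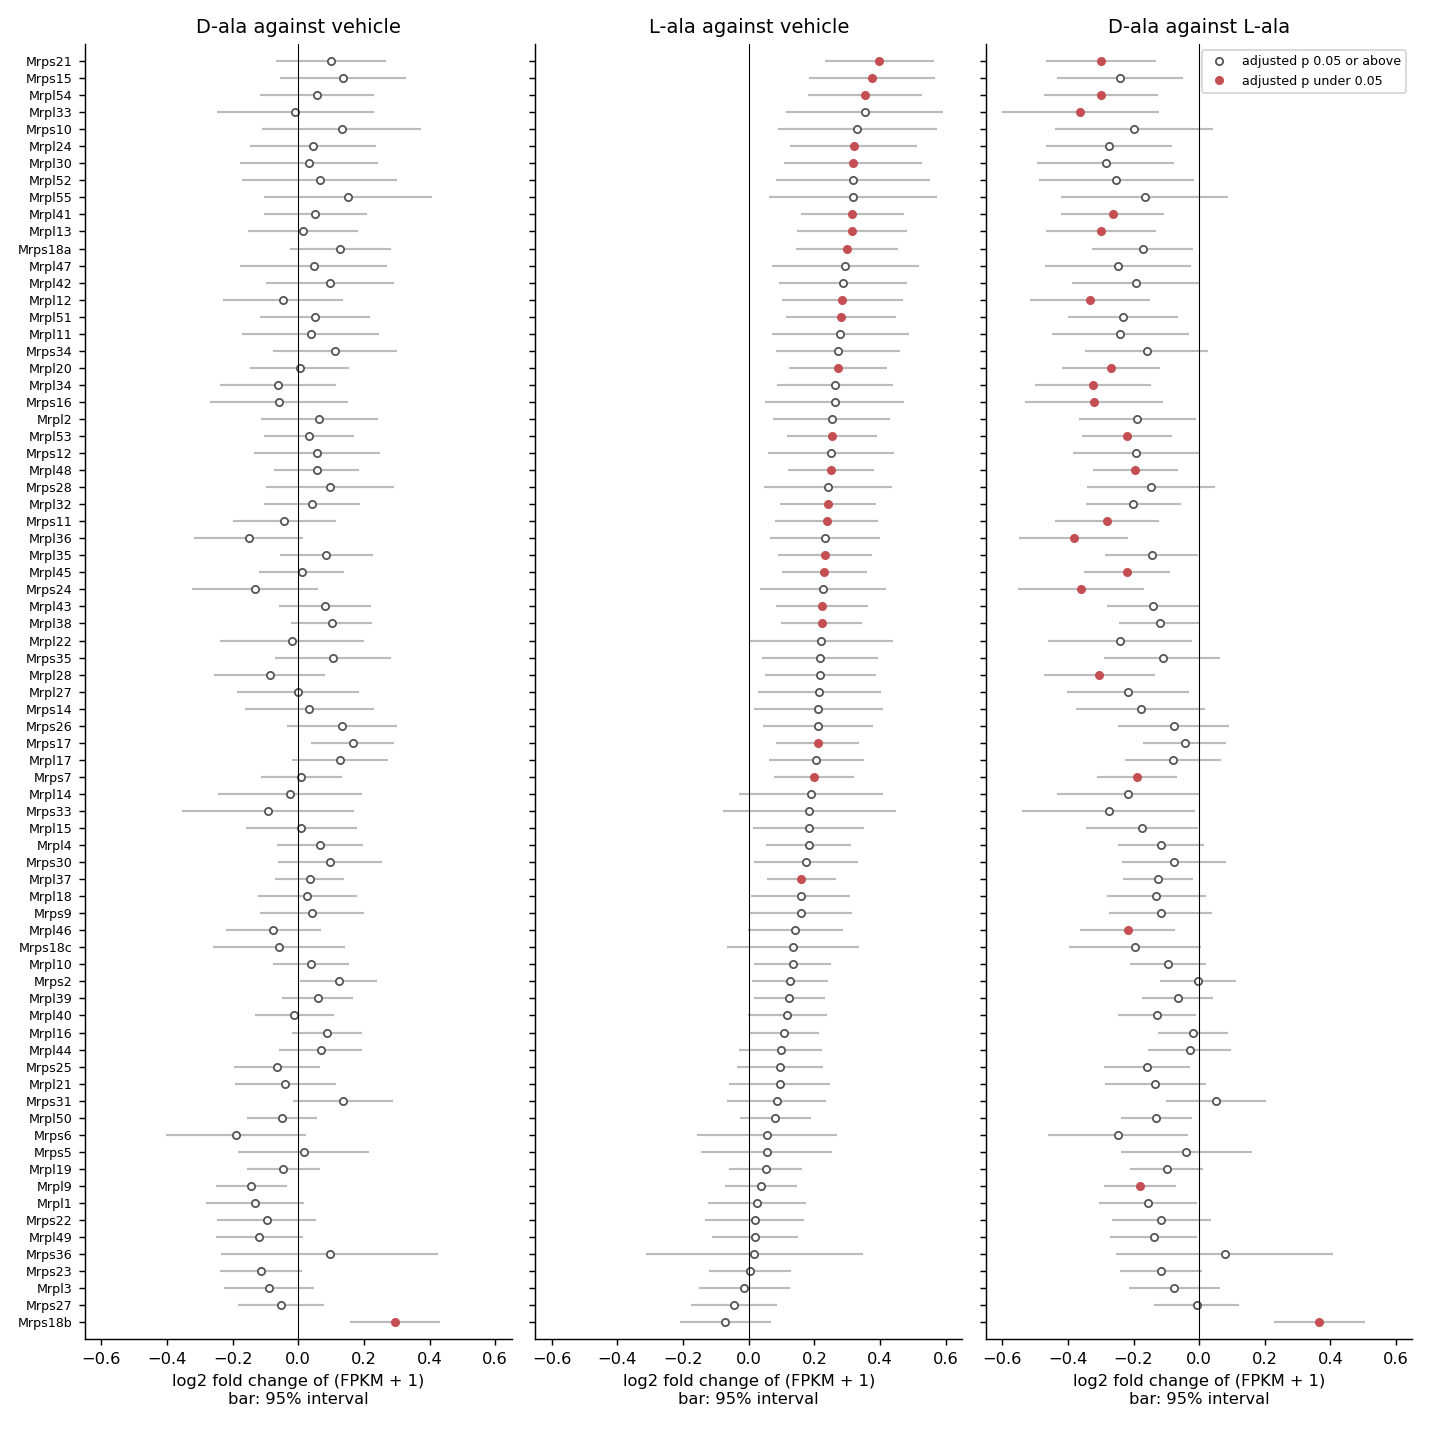
Log2 fold changes of (FPKM + 1) with 95% intervals for 75 Mrpl and Mrps genes, in panels for D-ala and for L-ala relative to vehicle and for D-ala relative to L-ala, ordered by the middle panel, with filled points at an adjusted p under 0.05. Mrps18b is the only filled point with D-ala, 22 filled points lie above 0 with L-ala, and in D-ala relative to L-ala 19 filled points lie below 0 and 1 (Mrps18b) above it.

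D-ala against vehicle asks whether the D form changed these genes within 2 h, and 1 of 75 passed the test. Mrps18b rose and none fell, where 11.5% of all tested genes were called, 6.53% higher and 4.92% lower (limma, Benjamini-Hochberg adjusted p under 0.05 over all tested genes). The median log2 fold change of the 75 genes was 0.04, against 0.00 over all tested genes, and 48 of the 75 were above 0. At an unadjusted p under 0.05 there were 4 genes, Mrps18b, Mrps17 and Mrps2 higher and Mrpl9 lower, where 26.5% of all tested genes passed. Each of the 75 intervals lay within a log2 change of 0.5 in either direction, and the median interval reached 0.16 to either side of its estimate. A scaling of the rescaled counts with voom instead called 3 genes lower (Mrpl1, Mrpl9 and Mrps23) and none higher, where 10.3% of all tested genes were called lower and 4.45% higher.

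Mrps18b is 1 of 3 mammalian paralogs of the bacterial ribosomal protein S18, and its product is in the small subunit. It had 22.01, 20.4, 24.1, 22.4 and 22.3 FPKM in D-ala libraries, 16.7, 17.2, 15.1, 16.2 and 20.2 FPKM in L-ala libraries and 17.7, 18.7, 17.7, 17.9 and 17.5 FPKM in vehicle libraries. All 5 D-ala libraries were above every library of the other groups, and the L-ala libraries spread on both sides of the vehicle libraries. D-ala exceeded vehicle by a log2 fold change of 0.29 ± 0.07 (SE) with a limma adjusted p of 0.0086, and exceeded L-ala by 0.37 ± 0.07 with an adjusted p of 0.00321. L-ala differed from vehicle by -0.07, with an interval from -0.21 to 0.07 and a limma adjusted p of 0.483. With the length trend removed, L-ala differed from vehicle by -0.22 (limma adjusted p 0.197). When L-ala replicate 5 was also left out, this was -0.32 (limma adjusted p 0.0163), a call of lower. The rise over L-ala kept its call in all 28 alternative settings, while the rise over vehicle missed the threshold in 4 of 28 with folds of 0.24 to 0.29. One of these was removal of a length trend, where the log2 fold change stayed at 0.29 and the limma adjusted p was 0.0669, in a range from 0.00115 to 0.0901 over the 28 settings.

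Its paralogs did not pass the test in this comparison. Mrps18a, which is built into the large subunit, had a log2 fold change of 0.13 with D-ala against vehicle (limma adjusted p 0.279), and Mrps18c had -0.06 (adjusted p 0.745). Across the 15 libraries, the value of Mrps18b ran against the mean of the other Mrp genes, with r = -0.60, where Mrpl20 had r = 0.97, the highest, and Mrps36 and Mrps5 had r = -0.03 and 0.01. These correlations include the differences between groups and describe these 15 libraries.

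Mrps18b starts 45 bases from Ppp1r10, which is read in the opposite direction and encodes a nuclear targeting subunit of protein phosphatase 1. The exons of the pair do not overlap. Ppp1r10 had 11.8, 12.6, 8.85, 8.60 and 9.18 FPKM in D-ala libraries, 5.60, 5.04, 3.95, 4.59 and 5.27 FPKM in L-ala libraries and 7.38, 11.5, 7.15, 13.3 and 6.36 FPKM in vehicle libraries. Its L-ala libraries were all below those of both other groups, while its D-ala and vehicle libraries overlapped. Ppp1r10 was higher in D-ala than in L-ala by a log2 fold change of 0.92 (limma adjusted p 0.00371), and lower in L-ala than in vehicle by -0.74 (adjusted p 0.0164), and D-ala against vehicle gave 0.18 (adjusted p 0.54). The antisense gene Gm16279 overlaps 638 exon bases of Mrps18b and was not tested here, so its share of these reads was not tested.

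**Figure D2:**
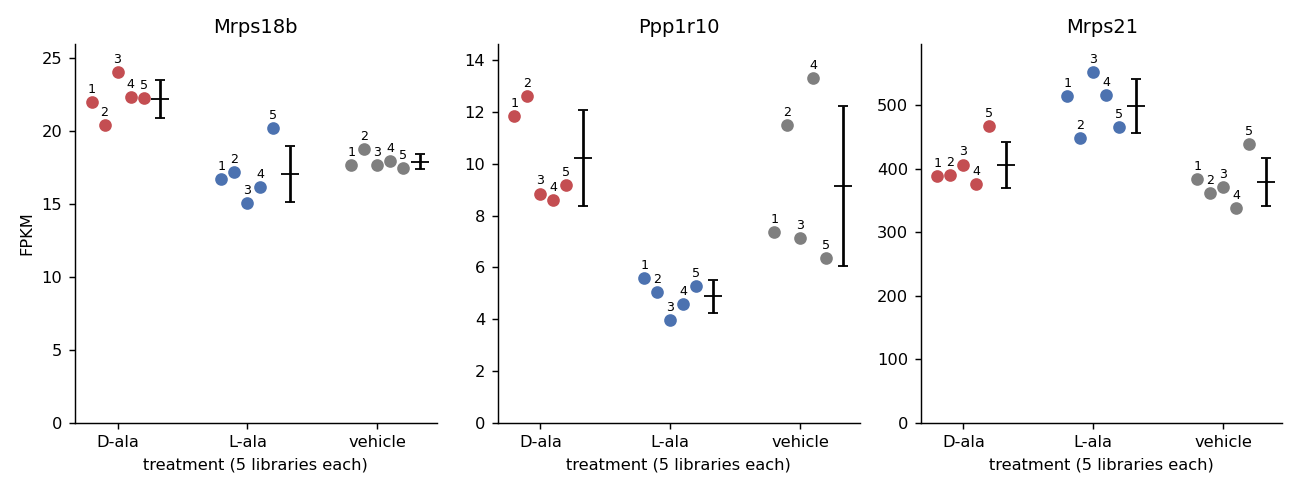
FPKM of Mrps18b, of its divergent neighbour Ppp1r10 and of Mrps21 in each library (points numbered by replicate), by treatment, with mean and SD beside each group of 5. Mrps18b is highest in the D-ala libraries, Ppp1r10 is lowest in the L-ala libraries, and Mrps21 is higher in every L-ala library than in every vehicle library.

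Among the other named genes, 2 came closest to a change with D-ala. Mrpl9, which binds at the base of a stalk of the large subunit, had 54.2, 55.1, 58.1, 47.7 and 55.4 FPKM in D-ala libraries and 59.1, 58.2, 60.1, 60.6 and 60.6 FPKM in vehicle libraries. Every D-ala library was below every vehicle library, but the log2 fold change of -0.14 had a limma adjusted p of 0.0824. Mrps17, a small-subunit protein, had 44.6, 41.15, 44.7, 42.9 and 43.4 FPKM in D-ala libraries and 38.3, 38.2, 37.8, 37.2 and 41.13 FPKM in vehicle libraries. The D-ala libraries were above the vehicle libraries, the closest by a small margin, with a log2 fold change of 0.17 and a limma adjusted p of 0.0836. With the length trend removed, both passed in place of Mrps18b, Mrps17 higher (0.16, limma adjusted p 0.0247) and Mrpl9 lower (-0.15, adjusted p 0.049), where 8.36% of all tested genes were called higher and 5.82% lower. Mrps17 also passed without L-ala replicate 5 (limma adjusted p 0.022). Groups that did not overlap were thus found for 2 genes higher and 1 lower, where 6.12% and 4.76% of all tested genes had such groups.

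L-ala against vehicle is the comparison with the natural amino acid, and here 22 of 75 genes rose, none fell and 53 did not pass, where 6.48% of all tested genes were called higher and 4.53% lower. The 22 were 16 of 46 Mrpl and 6 of 29 Mrps genes, and their log2 fold changes ran from 0.16 to 0.40. The median over the 75 was 0.22, against 0.01 over all tested genes, and 72 of 75 were above 0, against 51.5% of all tested genes. At an unadjusted p under 0.05 there were 52 genes, all higher, where 17.0% of all tested genes were higher. Groups without overlap were found for 7 genes (Mrps21, Mrpl54, Mrpl41, Mrpl48, Mrpl32, Mrps7 and Mrpl35), all higher in L-ala, where 4.01% of all tested genes had them and 3.23% had them in the other direction. The count fell to 5 once a trend with gene length was removed and ranged from 1 to 43 as single libraries were left out.

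In the small subunit the rises with L-ala were Mrps21, Mrps15, Mrps11, Mrps7 and Mrps17, together with Mrps18a, which by name belongs here. Mrps21 had 514, 447.5, 552, 516 and 465 FPKM in L-ala libraries and 383, 362, 371.5, 338 and 439 FPKM in vehicle libraries. Every L-ala library was above every vehicle library, with a log2 fold change of 0.40 ± 0.08 (SE) and a limma adjusted p of 0.0096. Mrps15, which binds the small ribosomal RNA directly, had 87.6, 74.4, 88.7, 95.6 and 68.8 FPKM in L-ala libraries and 61.9, 58.1, 68.2, 56.9 and 72.5 FPKM in vehicle libraries. L-ala replicate 5 lay inside the vehicle range, and the log2 fold change was 0.38 ± 0.09 with a limma adjusted p of 0.0199. Mrps18a had 107 to 144 FPKM in L-ala libraries and 92.0 to 107.5 FPKM in vehicle libraries, with a log2 fold change of 0.30 and an adjusted p of 0.0207.

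Several named small-subunit genes did not pass with L-ala. Mrps12, the counterpart of a bacterial protein at the decoding centre, had a log2 fold change of 0.25 (limma adjusted p 0.0785), which is above the median of the 75 genes, and Mrps5, another protein linked to accuracy, had 0.06 (adjusted p 0.723). Mrps6, Mrps16, Mrps22 and Mrps34 had 0.06, 0.26, 0.02 and 0.27, with adjusted p-values of 0.737, 0.0912, 0.877 and 0.0575. Changes in human MRPS16, MRPS22 and MRPS34 are known causes of respiratory chain deficiency. Mrps6 shares 159 exon bases with Slc5a3, and Mrps34 shares 763 with Nme3, each on the same strand, so that their reads may have been divided with those genes.

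In the large subunit, Mrpl12 of the stalk rose with L-ala, with 448, 417, 425, 525 and 342 FPKM in L-ala libraries and 371.5, 343, 363, 312 and 365 FPKM in vehicle libraries. Its first 4 L-ala libraries exceeded all vehicle libraries and replicate 5 did not, and the log2 fold change was 0.29 ± 0.09 with a limma adjusted p of 0.0448. Mrpl10 and Mrpl11, which form the stalk base, had log2 fold changes of 0.13 (limma adjusted p 0.114) and 0.28 (adjusted p 0.0733), the second close to the fold of Mrpl12. Mrpl53, a large-subunit protein found in mitochondria and not in bacteria, rose by 0.25 (limma adjusted p 0.0252) and shares 695 exon bases with the gene model Gm42688 on the same strand.

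Mrpl54, another protein without a bacterial counterpart, had 215, 186, 236, 234 and 179 FPKM in L-ala libraries and 162, 158, 169, 149 and 176 FPKM in vehicle libraries. All L-ala libraries were above all vehicle libraries, with a log2 fold change of 0.36 ± 0.08 and a limma adjusted p of 0.0175. Mrpl41, which also binds the survival protein Bcl2, had 25.7, 23.99, 26.1, 31.0 and 22.1 FPKM in L-ala libraries and 20.6, 20.8, 20.8, 18.7 and 20.96 FPKM in vehicle libraries. The groups did not overlap, and the log2 fold change was 0.32 ± 0.07 with a limma adjusted p of 0.019. Mrpl13 rose by 0.31 (adjusted p 0.0234), Mrpl20 by 0.27 (adjusted p 0.0264) and Mrpl48 by 0.25 (adjusted p 0.0216), all by limma.

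Mrpl24, at the exit of the peptide tunnel, rose by 0.32 on the log2 scale (limma adjusted p 0.0366). Mrpl45, which holds the ribosome to the inner membrane, rose by 0.23 (adjusted p 0.0293), and Mrpl37, which has no bacterial counterpart, rose by 0.16 (adjusted p 0.0494). Mrpl2 and Mrpl3, which reach toward the site of peptide bond formation, had 0.25 and -0.01 (limma adjusted p 0.0607 and 0.908). Mrpl44, which is related to an RNA-cutting enzyme, had 0.10 (adjusted p 0.277), and Mrps30, which sits in the large subunit, had 0.17 (adjusted p 0.13).

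In the values as deposited, the rise was not seen in all 5 L-ala libraries. The mean gene-centred log2 value of the 75 genes was 0.15, 0.05, 0.17, 0.27 and -0.04 in L-ala libraries, -0.05, -0.02, -0.05, -0.11 and -0.02 in D-ala libraries, and -0.03, -0.12, -0.05, -0.18 and 0.02 in vehicle libraries. L-ala replicates 1 to 4 were above all 10 libraries of the other groups, and replicate 5 was among them. With each library's trend with gene length removed, the same mean was 0.04, 0.02, 0.01, 0.07 and 0.05 in L-ala libraries, 0.00, -0.01, -0.01, -0.01 and -0.02 in D-ala libraries, and -0.00, -0.02, -0.02, -0.08 and -0.02 in vehicle libraries. All 5 L-ala libraries, replicate 5 included, then lay above the other 10, by less than before. As deposited and without replicate 5, 43 of the 75 genes rose, where 21.9% of all tested genes were called. Without L-ala replicate 4, 2 rose (Mrpl41 and Mrps21), and without vehicle replicate 4, only Mrps21 did, where 1.86% and 1.48% of all tested genes were called higher. Without L-ala replicate 1 or 3, 7 genes rose in each case, against 3.03% and 3.57% of all tested genes. Without vehicle replicate 2 there were 8 (3.57% of all tested genes), and without vehicle replicate 1 there were 14, of which 12 were among the 22 (4.03% of all tested genes).

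**Figure D3:**
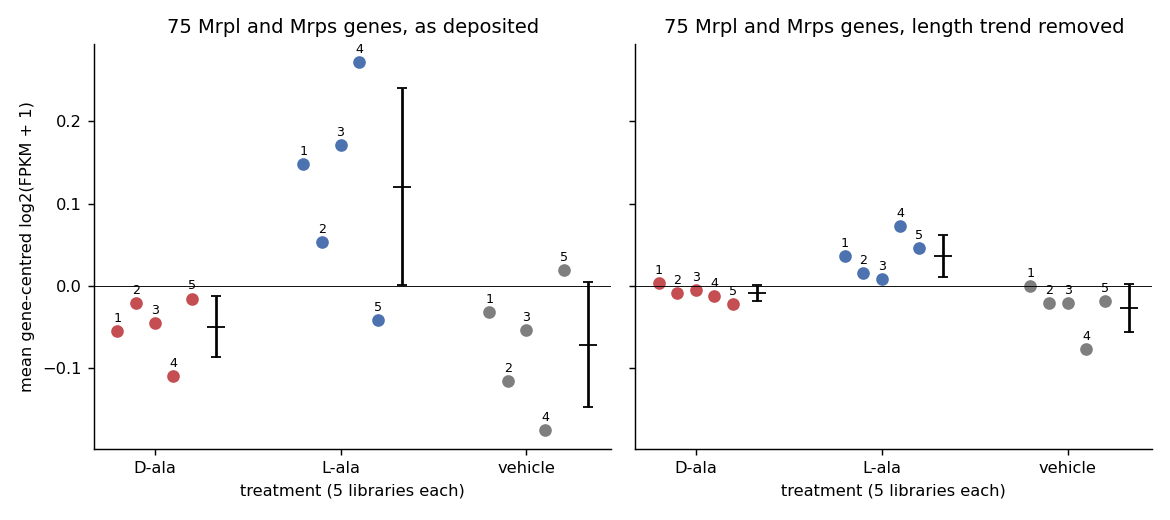
Mean gene-centred log2(FPKM + 1) of 75 Mrpl and Mrps genes in each library, numbered by replicate, with group mean and SD, from the values as deposited (left) and after removal of each library's trend with gene length (right). As deposited, L-ala replicate 4 is highest at 0.27 and L-ala replicate 5 lies at -0.04, and after removal the L-ala libraries lie between 0.01 and 0.07, above every D-ala and vehicle library.

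Gene length moved with the same libraries. Over all tested genes, the Spearman correlation of the gene-centred value with gene length was -0.43, -0.18, -0.46, -0.49 and 0.24 in L-ala libraries. It was 0.18, 0.02, 0.13, 0.34 and -0.06 in D-ala libraries and 0.09, 0.35, 0.20, 0.37 and -0.11 in vehicle libraries. In L-ala replicates 1 to 4, short genes were thus relatively high, and in replicate 5 they were not. The values of L-ala and vehicle libraries differed with p = 0.0397, those of D-ala and L-ala libraries with p = 0.0476, and those of D-ala and vehicle libraries had p = 0.603 (exact two-sided permutation tests, n = 5 each), or 0.0714, 0.0714 and 0.603 after Benjamini-Hochberg adjustment over these 3 exact tests. Across the 15 libraries, the mean of the 75 genes and this length correlation had r = -0.96 and a Spearman rho of -0.97, and r was -0.96 again without the 2 libraries farthest from the median. The measures share each library's depth and scaling, and the 75 genes are part of the tested genes, so this is a description.

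**Figure D4:**
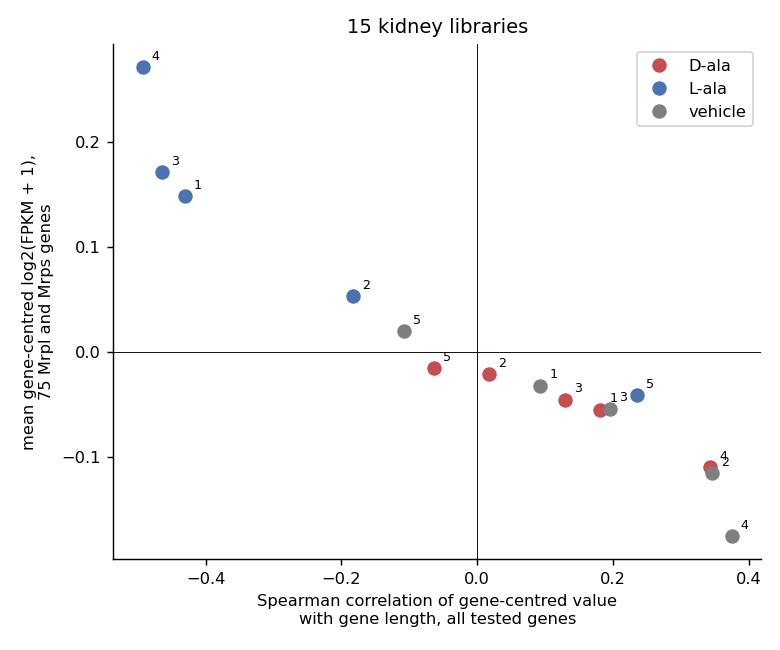
Mean gene-centred log2(FPKM + 1) of 75 Mrpl and Mrps genes (vertical axis) against the Spearman correlation of gene-centred values with gene length over all tested genes (horizontal axis), 1 point per library, numbered by replicate. Libraries of all 3 treatments lie along 1 falling line, with L-ala replicates 1, 3 and 4 at its upper end and L-ala replicate 5 among the D-ala and vehicle libraries.

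Short genes as a class lay higher with L-ala. In the shortest 25% of all tested genes, the median log2 fold change of L-ala against vehicle was 0.15 and 14.6% were called higher. The 59 Mrp genes among them had a median of 0.22, with 19 called higher. In the longest 25%, the median over all genes was -0.09 and 1.19% were called higher, and the 3 Mrp genes there had a median of 0.10 with none called. The Spearman correlation of fold change with length was -0.53 over the 75 genes and -0.46 over all tested genes, for L-ala against vehicle.

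**Figure D5:**
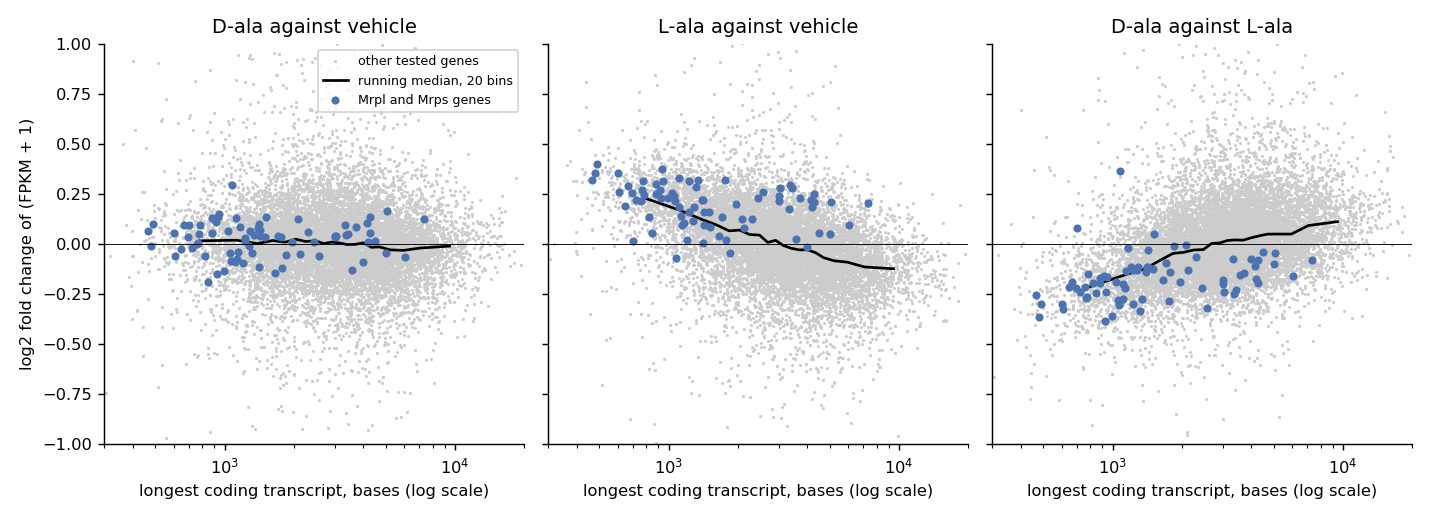
Log2 fold change of (FPKM + 1) against the longest annotated coding transcript (log scale) for tested genes (grey), 75 Mrpl and Mrps genes (blue) and the median in 20 bins of length (line), within the ranges drawn. The median line falls with length where L-ala is set against vehicle, rises in the panel of D-ala and L-ala, and stays near 0 where D-ala is set against vehicle, and most blue points follow it.

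With each library's length trend removed before the fit, 5 of 75 genes rose with L-ala and none fell, where 3.59% of all tested genes were called higher and 2.68% lower. The 5 were Mrpl17, Mrpl35, Mrpl41, Mrpl45 and Mrps15, of which Mrpl35, Mrpl41, Mrpl45 and Mrps15 were among the 22. The median over the 75 was 0.07, against 0.01 over all tested genes, and 59 of 75 were above 0, against 51.9% of all tested genes. Mrps21 then had a log2 fold change of 0.09 with a limma adjusted p of 0.45, in a range from 0.00371 to 0.879 over 28 settings. For Mrpl41, the length behind the FPKM was 3.21 times what its annotated coding transcript of 776 bases would give, where the middle 50% of all genes ran from 0.858 to 1.062. When annotated lengths were used to remove the trend, 8 of 75 genes rose, and none fell, where 3.88% of all tested genes rose and 3.17% fell, with Mrpl17, Mrpl35, Mrpl45 and Mrps15 again among them. Mrpl41 was not, at 0.09 and a limma adjusted p of 0.312 in a range from 0.00348 to 0.312.

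Mrpl35, a large-subunit protein, had 14.5, 14.03, 15.9, 17.6 and 14.8 FPKM in L-ala libraries and 11.96, 11.6, 13.8, 13.99 and 13.3 FPKM in vehicle libraries. All L-ala libraries, replicate 5 included, were above all vehicle libraries, and the log2 fold change was 0.23 with a limma adjusted p of 0.0401. Mrpl45 had 31.6, 30.5, 32.1, 32.4 and 27.5 FPKM in L-ala libraries and 26.6, 24.9, 29.5, 24.2 and 25.6 FPKM in vehicle libraries. Only replicate 5 of L-ala lay inside the vehicle range. Mrpl17, whose annotated transcript of 7300 bases is the longest of the 75, had 12.8, 12.1, 12.8, 13.6 and 11.04 FPKM in L-ala libraries and 11.9, 10.04, 10.4, 9.48 and 11.7 FPKM in vehicle libraries. Its log2 fold change was 0.21 with a limma adjusted p of 0.0613 as deposited, and 0.32 with 0.046 once the length trend was removed.

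Markers of other cell types, read from 11 lists, also moved. The summed level of 8 proximal tubule markers was 107800 to 143800 FPKM in L-ala libraries and 85860 to 104800 FPKM in vehicle libraries, and that of 4 neutrophil markers was 12.9 to 34.7 FPKM in L-ala libraries and 0.646 to 7.62 FPKM in vehicle libraries. The sum of 6 red blood cell markers was 270.6 to 752 FPKM in L-ala libraries and 23.0 to 265 FPKM in vehicle libraries, so that none of these 3 pairs overlapped. Thick ascending limb markers, 3 genes, went the other way, with 1182 to 1620 FPKM in L-ala libraries and 1793 to 2061 FPKM in vehicle libraries. In D-ala libraries these 4 sums were 77640 to 104100, 2.196 to 11.02, 42.7 to 468 and 1261 to 1956 FPKM. A sum is weighted toward the markers of highest level and need not show the typical marker. The median log2 fold change of the 8 proximal tubule markers against vehicle was 0.13 with L-ala and 0.13 with D-ala. Between D-ala and L-ala that median was 0.03. Of the tested markers, 3 of 8 for proximal tubule rose with L-ala against vehicle, as did 2 of 2 for neutrophils and 0 of 5 for red blood cells, and 1 of 3 for thick ascending limb fell. Of all tested genes, 6.48% were called higher and 4.53% lower. With the length trend removed, 0 of 2 neutrophil markers were called, while 3 of 8 for proximal tubule still rose and 1 of 3 for thick ascending limb still fell. Endothelial markers had the most calls with L-ala, 4 of 5 lower (Cdh5, Kdr, Tek and Pecam1), with a median log2 fold change of -0.61. With the length trend removed, 3 of the 5 were lower. The summed level of the 5 endothelial markers was 38.6 to 56.5 FPKM in D-ala libraries, 35.6 to 71.4 FPKM in L-ala libraries and 50.1 to 82.7 FPKM in vehicle libraries, which overlapped.

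With D-ala against vehicle, 2 of 5 endothelial, 2 of 5 macrophage and 2 of 4 fibroblast markers fell, and 2 of 8 for proximal tubule rose. Of all tested genes, 4.92% were called lower and 6.53% higher in this comparison. The sum of 3 distal convoluted tubule markers was 356 to 500 FPKM in D-ala libraries, 352 to 381 FPKM in L-ala libraries and 291 to 341 FPKM in vehicle libraries, with both treated groups above vehicle. That of 4 collecting duct markers was 363 to 412 FPKM in D-ala libraries, 409 to 481 FPKM in L-ala libraries and 387 to 486 FPKM in vehicle libraries. With D-ala against vehicle, 1 of 3 distal convoluted tubule markers (Slc12a3) was called higher. Of the 4 collecting duct markers, 1 was called higher and 1 lower (Aqp2 and Scnn1g, in opposite directions), which their sum does not show. These counts were the same with the length trend removed. In the remaining lists, podocyte and adipocyte, no marker was called against vehicle. No marker of these lists was at 0 in every library, and the defining kidney markers were present in all groups. Their part in the level of the mitochondrial ribosome was not tested, and in whole tissue fewer cells of a type cannot be told apart from less RNA per cell.

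D-ala against L-ala sets the mirror-image forms side by side, without knowledge that their doses matched. Of 75 genes, 1 was higher (Mrps18b), 19 were lower and 55 did not pass, where 7.01% of all tested genes were called higher and 6.66% lower. The 19 were 14 Mrpl and 5 Mrps genes, the median over the 75 was -0.18 against -0.01 over all tested genes, and 72 of 75 were below 0. The libraries did not overlap for 1 gene higher and 3 lower (Mrpl36, Mrpl13 and Mrpl9), against 5.08% and 4.02% of all tested genes. This comparison shares the L-ala libraries with the one above. Without L-ala replicate 5 the calls came to 38, 37 of them lower, where 23.4% of all tested genes were called, and without L-ala replicate 4 they came to 2, Mrpl36 lower and Mrps18b higher, where 6.54% of all tested genes were called. Leaving out L-ala replicate 1 or 3 gave 7 and 8 calls, where 8.71% and 9.08% of all tested genes were called. Leaving out D-ala replicate 1, 3 or 4 gave 9, 10 and 8 calls, where 8.65%, 8.23% and 9.01% were.

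Mrpl36, a very small zinc-binding protein of the large subunit, had 51.6, 47.3, 51.2, 51.2 and 57.9 FPKM in D-ala libraries, 72.7, 62.1, 74.7, 71.1 and 59.6 FPKM in L-ala libraries and 56.3, 61.1, 53.0, 52.3 and 66.4 FPKM in vehicle libraries. Every D-ala library was below every L-ala library, while vehicle overlapped with both. D-ala against L-ala gave a log2 fold change of -0.38 ± 0.08 (SE) and a limma adjusted p of 0.0071, and the call was kept in 27 of 28 alternative settings. Against vehicle, D-ala gave -0.15 (limma adjusted p 0.237). By its GENCODE start, Mrpl36 begins 29 bases from Ndufs6, a complex I gene read in the opposite direction. The promoter entry shown for Mrpl36 is not at that start. Ndufs6 had 280.2 to 317 FPKM in D-ala libraries and 305 to 451 FPKM in L-ala libraries, with a log2 fold change of -0.39 and a limma adjusted p of 0.017. The exons of this pair overlap by 30 bases on opposite strands, and a sharing of reads between them was not tested.

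Mrps24, a small-subunit protein near the entry of the message, had 72.9, 68.7, 68.6, 66.5 and 75.7 FPKM in D-ala libraries and 95.8, 88.1, 95.8, 106 and 71.0 FPKM in L-ala libraries. L-ala replicate 5 fell inside the D-ala range and the other L-ala libraries lay above it, with a log2 fold change of -0.36 ± 0.09 and a limma adjusted p of 0.0186. Mrps24 shares 226 exon bases with Urgcp on the same strand. Mrpl12 was lower in D-ala libraries by a log2 fold change of -0.33 (limma adjusted p 0.0214), with 328, 354, 342, 328 and 344 FPKM in D-ala libraries, all but 1 L-ala library being above them. Mrpl34, Mrpl13, Mrpl28, Mrps11 and Mrpl20 had -0.32, -0.30, -0.30, -0.28 and -0.27, with limma adjusted p-values from 0.0209 to 0.0226. Mrpl9 was below both other groups in every D-ala library, with a log2 fold change of -0.18 against L-ala (limma adjusted p 0.0307).

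With the length trend removed, 6 of the 20 calls between D-ala and L-ala remained, where 5.95% of all tested genes were called higher and 5.25% lower. They were Mrps18b, higher, and Mrpl12, Mrpl36, Mrpl41, Mrpl45 and Mrps24, lower. The median over the 75 was -0.03, against 0.00 over all tested genes, and 51 of 75 were below 0. With annotated lengths in place of the table's, 6 were called again, Mrps18b higher and Mrpl12, Mrpl45, Mrpl48, Mrps16 and Mrps24 lower (6.37% and 5.25% of all tested genes), so that Mrps18b, Mrpl12, Mrpl45 and Mrps24 were in both sets. The signs of Mrps21 and Mrpl53 turned to just above 0, at 0.0044 and 0.0054, in the first of these fits, both with adjusted p-values over 0.9 by limma.

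The 75 genes varied together from library to library. Within groups, the mean correlation between pairs of them was 0.41 over 15 libraries, against 0.00 between pairs of all tested genes, and it was 0.04 for the 75 after the length trend was removed. The tested genes outside the list whose values ran closest to the mean of the 75 were Ndufa13, Minos1, Ndufb9, Ndufc1 and Uqcrh, with r from 0.980 to 0.983 over the 15 libraries. These r values include the differences between groups and the length trend. The coding transcripts of these genes are also short, from 547 to 2549 bases, against a median of 3027 bases for tested genes. The part of length in these correlations was not tested. Ndufa13, Ndufb9 and Ndufc1 encode subunits of complex I and Uqcrh a subunit of complex III, and Minos1 organises the cristae of the inner membrane. Ndufa13 averaged 343 ± 21.3 FPKM in D-ala libraries, 439 ± 78.1 FPKM in L-ala libraries and 331 ± 32.4 FPKM in vehicle libraries (SD, n = 5 each).

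Other genes of mitochondrial translation were read from 5 lists with 63 tested genes. With D-ala against vehicle 3 rose and 4 fell, where 11.5% of all tested genes were called. With L-ala against vehicle 2 rose and 1 fell, where 6.48% of all tested genes rose and 4.53% fell. In D-ala relative to L-ala 1 was higher and 7 were lower, where 7.01% and 6.66% of all tested genes were. These counts are near the shares of all genes and are not read as particular to the lists. Among 8 further ribosome proteins, only Ict1, a peptide-release protein built into the large subunit, passed, and it rose with L-ala by a log2 fold change of 0.34 (limma adjusted p 0.0349), a call lost with the length trend removed (0.14, adjusted p 0.11). Among 13 translation factors, Tsfm, the exchange factor for the elongation factor Tufm, rose with both amino acids. Tsfm had 62.2, 55.3, 51.8, 52.8 and 55.0 FPKM in D-ala libraries, 57.0, 55.4, 52.9, 65.9 and 53.7 FPKM in L-ala libraries and 39.7, 42.02, 46.4, 38.2 and 41.5 FPKM in vehicle libraries. All 10 treated libraries were above all vehicle libraries, with log2 fold changes of 0.41 for D-ala (limma adjusted p 0.00153) and 0.44 for L-ala (adjusted p 0.00298), which share the vehicle libraries. Both calls held with the length trend removed, at 0.40 (limma adjusted p 0.00097) and 0.32 (adjusted p 0.014).

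Tufm itself did not pass, at -0.00 for D-ala and 0.22 for L-ala against vehicle (limma adjusted p 0.993 and 0.0907). The release factor gene Mtrf1l was lower with D-ala than in vehicle by -0.27 and than in L-ala by -0.29 (limma adjusted p 0.0344 and 0.0217). Of 23 genes for ribosome assembly and ribosomal RNA modification, Noa1, a GTPase of assembly, and Ftsj2, a methyltransferase for the large ribosomal RNA, fell with D-ala against vehicle, where 4.92% of all tested genes fell. Noa1 averaged 10.3 ± 0.886 FPKM in D-ala libraries and 12.3 ± 0.841 FPKM in vehicle libraries (SD, n = 5 each), with a log2 fold change of -0.23 and a limma adjusted p of 0.0343. Ftsj2 averaged 7.65 ± 0.452 FPKM in D-ala libraries and 9.44 ± 0.897 FPKM in vehicle libraries, with -0.27 and 0.0354. With L-ala, Mrm1, a methyltransferase of the same RNA, fell by 0.31 on the log2 scale (limma adjusted p 0.0447), with an adjusted p of 0.0521 once the length trend was removed.

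Of 9 genes for transcription and upkeep of mitochondrial DNA, Peo1, which encodes the helicase Twinkle and is now called Twnk, was the only one to pass. It had 8.12, 7.17, 8.26, 8.46 and 9.11 FPKM in D-ala libraries, 9.57, 9.98, 8.97, 9.64 and 10.8 FPKM in L-ala libraries and 9.74, 12.5, 10.6, 10.8 and 10.4 FPKM in vehicle libraries. All D-ala libraries were below all vehicle libraries, with a log2 fold change of -0.36 and a limma adjusted p of 0.00492. Its exons overlap 507 bases of Mrpl43 on the other strand. Tfam and Polrmt had log2 fold changes of -0.09 and 0.03 for D-ala and -0.00 and -0.15 for L-ala against vehicle, and none passed.

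Of 10 nuclear regulators of mitochondrial genes, Myc and Ppargc1a rose with D-ala against vehicle, where 6.53% of all tested genes rose, and none passed with L-ala. With the length trend removed, Ppargc1b also rose with D-ala (0.40, limma adjusted p 0.0491) and Ppargc1a rose with L-ala (0.27, adjusted p 0.0196). Myc had 4.12, 9.55, 6.50, 9.62 and 10.5 FPKM in D-ala libraries, 1.49, 1.95, 4.495, 1.68 and 1.06 FPKM in L-ala libraries and 2.92, 3.10, 1.47, 2.17 and 1.29 FPKM in vehicle libraries. All D-ala libraries were above all vehicle libraries, with a log2 fold change of 1.49 and a limma adjusted p of 0.00352. Ppargc1a, a coactivator of genes for mitochondrial biogenesis, averaged 14.3 ± 1.35 FPKM in D-ala libraries, 13.3 ± 0.405 FPKM in L-ala libraries and 11.8 ± 0.51 FPKM in vehicle libraries (SD, n = 5 each). Its log2 fold change was 0.25 for D-ala (limma adjusted p 0.0149) and 0.16 for L-ala (adjusted p 0.0933) against vehicle, and 0.09 between D-ala and L-ala (adjusted p 0.337).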

How the data were processed

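Kidney RNA-seq of 15 libraries (D-ala, L-ala and vehicle, 5 each, at 2 h) was analysed from 1 deposited table of 23284 genes. RNA was extracted with TRIzol and libraries made with a stranded messenger RNA kit, per the labels' protocols. TopHat2 2.0.13, Bowtie2 2.2.3, SAMtools 0.1.19 and build mm10 are named in the submitters' processing notes, with no roles given. The program behind the gene values is not given in the sources used here. The FPKM values were deposited by the authors, per the file headers. A column headed as counts per the file headers was treated as a score, because the deposited values had been rescaled to a common depth and rounded, so no count model was the main test. Depth recovered from gaps in those whole numbers ran from 7.57 M to 10.9 M reads per library. FPKM give no counting interval, so precision is the spread between libraries.

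The 11781 genes that reached 1 FPKM in 5 libraries were fitted as log2(FPKM + 1), a scale that understates changes of low genes. The fit used limma 3.58.1 in R 4.3.3 with 1 mean per group, variance trend and robust moderation, and was checked on simulated data. Calls are at a Benjamini-Hochberg adjusted p under 0.05 over all tested genes, and every adjusted p in the text is from limma. Gene length was the rescaled count divided by FPKM, and its trend was removed per library by loess. Coordinates are from GENCODE M21 (GRCm38, the assembly of mm10), and promoters from RefSeq. Single values per library were compared with exact permutation tests.

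The genes, lists and markers were chosen with earlier results of these data known. Named are up to 8 called genes per comparison and direction by smallest p, the 5 highest and 3 lowest by level, the 3 most and 3 least variable in vehicle, a fixed set by role, and up to 5 called genes per comparison from the other lists, with Tufm, Tfam, Polrmt and Ppargc1a. Mrpl17, Mrpl35, Mrps2, Mrps7 and Mrps17 and the remaining called genes were named after their values were seen. Alternatives were other scalings, pseudocounts, filters, pairwise fits, length and GC corrections, library weights, the rescaled counts with voom, and leaving out each library.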

Additional observations from a re-analysis of the deposited data

Results flagged for a closer look

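In groups of 5 libraries, 1 library stood apart from the other 4 (gap over range above Dixon's critical value of 0.71) for 6 of 120 groups of named genes, and chance gives about 1 in 20 groups. Mrpl34 had 122.0 FPKM in L-ala replicate 5, below 159.7 to 167 FPKM in the other L-ala libraries. Mrps5 had 29.7 FPKM in the same library, above 21.8 to 23.9 FPKM in the others. Mrps12 had 125.6 FPKM in L-ala replicate 4, above 87.2 to 97.9 FPKM. Mrpl11 had 19.6 FPKM in D-ala replicate 4, below 22.6 to 23.5 FPKM. Mrpl41 had 18.7 FPKM in vehicle replicate 4, below 20.6 to 20.96 FPKM, and Mrps6 had 162 FPKM in vehicle replicate 2, below 194.5 to 202 FPKM.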

How the results depend on the processing

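With L-ala against vehicle, 22 genes rose as reported. There were 3 with quantile normalization, 11 with no filter on low values, 5 with only the 2 groups compared, 42 with library weights and 4 with the rescaled counts in voom, which put the median of all genes at -0.10, against 0.01 as reported. Over all genes, 763 were called higher as reported, and 234, 522, 330, 1368 and 283 in these fits in turn. There were 5 with the length trend removed, 5 with length and GC trends removed, 8 with annotated lengths and 9 (8 higher, and Mrps18b lower) with the length trend removed and without L-ala replicate 5. Over all genes, 423, 456, 439 and 604 were called higher in these fits in turn, and 520 lower in the last. Leaving out 1 library gave 1 to 43, where 321 to 2580 of all genes were called in either direction. The median of 0.22 became 0.10 with quantile normalization, 0.11 in voom, 0.0705 with the length trend removed, 0.0662 with length and GC, 0.0511 with annotated lengths and 0.0608 with the length trend removed and without L-ala replicate 5, and ran from 0.17 to 0.27 as libraries were left out.

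For D-ala against L-ala, 20 calls became 10 with quantile normalization, 10 with only the 2 groups, 36 with library weights, 6 with the length trend removed, 8 with length and GC, 6 with annotated lengths and 12 with the length trend removed and without L-ala replicate 5, and ran from 2 to 38 as libraries were left out. Over all genes, 1611 were called as reported, and 1240, 975, 2700, 1319, 1123, 1316 and 1842 in these fits in turn. As libraries were left out, 770 to 2761 of all genes were called. The median of -0.18 became -0.0348, -0.0364, -0.0503 and -0.0396 in the last 4 fits on length, and ran from -0.21 to -0.13 as libraries were left out. In those fits Mrpl53 turned to 0.0054, 0.0129 (annotated lengths) and 0.0164 (without L-ala replicate 5), Mrps21 to 0.0044 and 0.0818, and Mrpl48 to 0.0026 with length and GC, none called. For D-ala against vehicle, 1 call became 3 with quantile normalization, 3 in voom (all lower), 3 with the length trend removed and without L-ala replicate 5, and 2 with only the 2 groups, the length trend, the GC trend, library weights or length and GC, and ran from 1 to 2 as libraries were left out, while the median stayed within 1 SD. In these fits 1264 (GC trend) to 1902 (library weights) of all genes were called, against 1349 as reported. With single libraries left out the range was 812 to 1592.

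The fits with both corrections, with annotated lengths and with a length correction that leaves out a library were chosen after seeing the data. The cause of each change was not tested. No paired analysis was possible because the replicate numbers follow accession order and pair no samples.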
